A study of Mus musculus with 556 samples.

Results

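Zfp genes encode proteins with zinc fingers of the Cys2-His2 type, small zinc-binding loops that mostly contact DNA. Described here are 98 autosomal mouse Zfp genes that lie outside clusters of their family by a rule on names and distance. Each has a symbol of Zfp plus digits and no other such gene with its midpoint within 1 Mb. They were drawn from 358 Zfp genes that the same naming rule gave among 20661 autosomal protein-coding genes, and 2 further Zfp genes were left out by the rule. The other 260 have such a neighbour and are called clustered. Genes with a letter after the number were not counted as neighbours. Counting any symbol that starts with Zfp leaves 94, without Zfp959, Zfp951, Zfp469 and Zfp276, and the bin of Zfp959 itself also holds Zfp119a. The members closest to the limit were Zfp951, at 1065 kb from Zfp326, and Zfp598, at 1091 kb from Zfp13. On the other side of the limit, Zfp710 and Zfp592 lay 961 kb apart and counted as clustered. The 98 genes were found on all 19 autosomes and fell into 98 separate bins of 100 kb. Of these bins, 37 held no other protein-coding gene by midpoint and 61 held at least 1. The largest number was 8 genes in a bin, and 16 members are longer than their bin. A value below is therefore that of a 100 kb neighbourhood, not of a gene body.

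Clustered Zfp genes are largely of the KRAB type, which recruit the corepressor Trim28 and set repressive chromatin on transposable elements, whereas many Zfp genes outside clusters encode older, conserved proteins with individual roles in development, RNA binding or the cell cycle. Lamina-associated domains (LADs) are long, gene-poor stretches of chromatin that touch the nuclear lamina, the protein mesh under the inner nuclear membrane. Genes in them are mostly silent.

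Contact with the lamina was measured by DamID in single cells. The methyltransferase Dam, fused to lamin B1, marks GATC sites close to the lamina, and unfused Dam marks accessible chromatin. The value is OE, the authors' ratio of observed to expected reads in a bin, so that 1 is the expected level. A bin with OE of at least 1 in a cell is called in contact below. The term marks a signal threshold only, and the signal of Dam alone is not subtracted. The table holds 512 cells, of which 498 could be placed in a group.

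The fusion was expressed in 56 oocytes, 19 zygotes, 47 blastomeres at the 2-cell stage, 41 at the 8-cell stage and 10 embryonic stem (ES) cells. A further 17 oocytes labelled 20 ng and 23 labelled 50 ng also carried it. Dam alone was expressed in 43, 46, 45 and 4 cells of the first 4 stages. Oocytes and isolated pronuclei are labelled C57BL/6, whole embryos C57BL/6 female x CAST/EiJ male, and ES cells 129/Sv female x CAST/EiJ male. The protocol instead names F1 (CBAxC57BL/6J) females as the source of embryos, so the maternal strain is uncertain. Oocytes and embryos expressed the constructs from injected mRNA with an auxin-inducible degron, and auxin was withheld for 6 to 8 h. The mRNA was given at 5 ng/µl of Dam-lamin B1 in the 56 oocytes and 19 zygotes, 10 at the 2-cell and 20 at the 8-cell stage. Dam was given at 20 ng/µl in oocytes and zygotes and 40 in 2-cell and 8-cell embryos. Stage, strain, dose and depth change together between stages, so the stage courses below are descriptions without a test. Further zygotes carrying the fusion were given Kdm5b mRNA at 2 µg/µl, wild-type (14) or mutant (9). Others received Kdm4d mRNA, wild-type (12) or mutant (10), or were kept with aphidicolin (9) or its solvent DMSO (11). These libraries are labelled zygotes, while the protocol describes aphidicolin for 2-cell embryos only, so their stage is uncertain. Single pronuclei carrying the fusion came without Kdm5b from the paternal (15) or the maternal (10) side. With wild-type or mutant Kdm5b they were paternal (19 and 6) or maternal (19 and 13). Kdm5b and Kdm4d are histone demethylases acting on H3K4 and H3K9, and aphidicolin blocks DNA replication. The labels name no animal or embryo, so cells of 1 embryo cannot be recognised. The p-values measure only the spread between these libraries.

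Depth was recovered from the steps of the OE values and ran from 23564 to 1091149 reads per cell, with a median of 71774. Group medians lay between 36305 reads, in 8-cell cells with Dam-lamin B1, and 216242 reads, in zygotes with wild-type Kdm5b. Were the smallest step worth several reads, these depths would be multiples. No 2 libraries were near-identical, since the highest correlation between any pair was 0.658, over 4805 bins on the log2 scale.

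Against the LAD lists that the authors deposited for the inner cell mass (ICM) and the trophectoderm (TE) of the blastocyst, most solitary Zfp genes lay outside. A bin was assigned to a list when at least 50% of it was covered. Of the 98 members, 64 (65.3%) were in neither list, 18 (18.4%) were in both, 8 were in the ICM list only and 8 in the TE list only. Of the 256 clustered Zfp genes with a value, which share 165 bins, 31.2% were in both lists and 50% in neither. The difference was not tested. Among all protein-coding genes 27.2% were in both lists and 59.7% in neither. For Zbtb genes, another zinc finger family whose members mostly stand alone, the shares were 20.6% and 67.6% of 34.

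The start sites of these genes were mostly rich in CpG, the dinucleotide whose density marks CpG islands. RefSeq start-site windows of 300 bases were found for 76 of the 98 members. Their median was 18.5 CpG, against 14 over 16456 genes and 11 over 223 clustered Zfp genes. In both LAD lists the contrast was wider, with a median of 17 CpG in 12 members and of 4 in 4473 genes of all kinds. Outside the lists the medians were 20.5 in 50 members and 18 in 9831 genes.

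The windows printed here are for 4 members with a single RefSeq start at the outer end of the gene. They are the richest and the poorest in CG among 5 such members in both lists and 15 in neither. Each run is the 250 bases before the start in GRCm38.p6, 5′ to 3′ on the gene's strand, with every CG in capitals. CG reads the same on both strands, matches cannot overlap, and 91.7% of 27025 such runs over all genes hold at least 1. Zfp91 (chr19:12796124-12796373, minus strand) and Zfp202 (chr9:40192066-40192315, plus strand) are in both lists. Zfp319 (chr8:95331812-95332061, minus strand) and Zfp648 (chr1:154200937-154201186, plus strand) are in neither.
Zfp91: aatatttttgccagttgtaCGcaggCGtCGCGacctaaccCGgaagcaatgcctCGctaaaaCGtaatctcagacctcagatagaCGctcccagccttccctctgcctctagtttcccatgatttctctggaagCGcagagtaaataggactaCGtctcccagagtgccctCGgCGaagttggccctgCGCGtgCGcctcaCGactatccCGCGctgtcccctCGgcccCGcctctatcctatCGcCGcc
Zfp202: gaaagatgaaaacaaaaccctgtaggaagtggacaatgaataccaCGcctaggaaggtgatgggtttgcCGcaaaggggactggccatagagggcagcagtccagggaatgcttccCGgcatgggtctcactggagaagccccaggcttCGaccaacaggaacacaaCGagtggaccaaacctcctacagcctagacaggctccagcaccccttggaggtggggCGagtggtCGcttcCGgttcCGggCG
Zfp319: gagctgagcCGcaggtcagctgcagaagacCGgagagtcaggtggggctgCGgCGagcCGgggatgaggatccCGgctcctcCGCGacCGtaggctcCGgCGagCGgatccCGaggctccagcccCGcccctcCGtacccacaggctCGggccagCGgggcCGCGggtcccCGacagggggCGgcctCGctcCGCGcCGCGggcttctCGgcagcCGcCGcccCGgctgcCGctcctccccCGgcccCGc
Zfp648: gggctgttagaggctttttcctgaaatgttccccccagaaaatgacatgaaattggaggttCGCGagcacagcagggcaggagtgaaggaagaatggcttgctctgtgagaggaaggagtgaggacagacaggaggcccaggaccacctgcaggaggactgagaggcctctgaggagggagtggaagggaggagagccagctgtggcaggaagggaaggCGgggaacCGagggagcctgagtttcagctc
The runs hold 22, 10, 33 and 4 CG, in that order. Dam methylates GATC, which is its own reverse complement. Only the Zfp319 run holds any, with 2 sites, and 48.7% of the 76 windows of 300 bases held 1 or more, against 46.4% of all.

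In zygotes the solitary Zfp bins carried less Dam-lamin B1 signal than Dam signal. By limma on log2(OE + 0.25), with Benjamini-Hochberg adjustment over 23888 bins, 69 of 98 members were lower with Dam-lamin B1 and 0 were higher. Over all bins 37.6% were lower and 22.2% were higher. At an unadjusted p under 0.05 the test counted 74 members, beside 64.5% of bins. Fisher's exact test on the cells in contact called 40 lower and 0 higher, beside 21.3% and 19% of bins. The median log2 difference was −0.81 over the members, −0.70 over bins with a protein-coding gene and −0.37 over all bins. Every member passed the filter on low values. Zygotes with Dam were deeper, with a median of 94301 reads against 41812, and depth moves a log2 value with a pseudocount. With each cell thinned to 28431 reads, 29 members were lower and 0 higher, beside 18% of bins lower and 19.7% higher. The median over the members was then −0.68. Cell by cell, the mean OE over member bins lay below that over all bins in 19 of 19 zygotes with Dam-lamin B1, and above it in 46 of 46 with Dam.

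**Figure D1:**
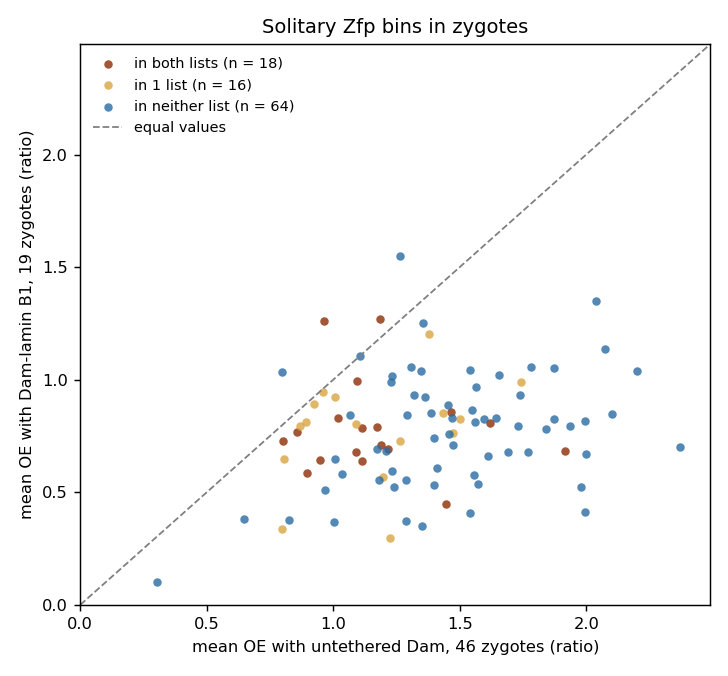
Mean OE of the 98 solitary Zfp bins in zygotes, 19 cells with Dam-lamin B1 (vertical axis) against 46 with untethered Dam (horizontal axis). Each point is 1 bin, coloured by blastocyst LAD list, and the dashed line marks equal values. Most points lie below the line, also those of the 18 bins in both lists.

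The largest log2 difference was at Zfp362 on chromosome 4 (128773085 to 128806112), in neither list. Its OE was 0.411 ± 0.527 (SD, n = 19) with Dam-lamin B1, with a median of 0.351 and a highest value of 2.06. With Dam it was 2.00 ± 1.21 (SD, n = 46), with a median of 1.82 and a highest value of 5.78. The difference was −1.92 on the log2 scale (SE 0.278, limma adjusted p = 1.66e-08). The groups overlapped, but 18 of 19 zygotes were below the Dam mean. At Zfp523 the means were 0.701 ± 0.857 and 2.37 ± 1.17, a log2 difference of −1.89 with the same number of zygotes below. Zfp142 was below the Dam mean in 19 of 19 zygotes, with means of 0.408 ± 0.429 and 1.54 ± 0.858 (log2 difference −1.54). The other members among the 10 with the largest negative difference were Zfp664, Zfp488, Zfp64, Zfp661, Zfp219, Zfp598 and Zfp346, with log2 differences between −1.64 and −1.36. Zfp488 is known from oligodendrocyte differentiation. All 10 were outside both lists except Zfp219, which was in the TE list only. For Zfp362, Zfp523 and Zfp142 a permutation test gave p = 2e-05, which is the smallest that 100000 resamples can give and is not adjusted.

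On all reads, members with known roles were mostly lower, as were 50 of 74 members in none of the role lists, beside 37.6% of all bins. Of 7 members that act in RNA binding, ribosome work or spindle assembly, 7 were lower. Zfp598 encodes a ubiquitin ligase for collided ribosomes, and its log2 difference was −1.40. Zfp346, which binds double-stranded RNA, differed by −1.36. Zfp106 (−1.14), Zfp830 (−0.94) and Zfp622 (−0.83) lay between. The smallest of the 7 differences was −0.72, at Zfp638, and that of Zfp207, a Bub3-binding spindle protein, was −0.82. Among 8 regulators of development 6 were lower, with Zfp423 at −1.10, Zfp503 at −1.03, Zfp703 at −0.93, Zfp750 at −0.81, Zfp521 at −0.74 and Zfp536 at −0.70. Zfp407 (−0.35) and Zfp462 (−0.57) did not pass. Of 6 members tied to pluripotency 3 were lower, namely Zfp281 (−0.69), Zfp296 (−0.98) and Zfp706 (−0.69). Zfp148 (0.02), Zfp143 (−0.12) and Zfp217 (−0.46) did not pass. The 2 members known from germ cells were both lower: Zfp318 at −1.32 and Zfp541 at −0.80. At equal reads fewer of these passed: 2 of the 7, 0 of the 8, 1 of the 6 and 1 of the 2. Members in none of the role lists then had 24 of 74 lower, beside 18% of all bins. By limma on all reads the count at an unadjusted p under 0.05 included Zfp462. Among the 8 regulators of development, 3 were lower by Fisher's exact test, Zfp423, Zfp503 and Zfp703, beside 21.3% of all bins. Zfp57, the KRAB zinc finger protein that keeps DNA methylation at imprinted loci, was lower too. Its OE averaged 0.683 ± 0.578 for the fusion and 1.92 ± 1.21 for Dam, a log2 difference of −1.30 (SE 0.277, limma adjusted p = 4.54e-05).

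Genes for the partners of KRAB zinc finger proteins were mostly lower too. Of 20 such genes 15 were lower in zygotes with Dam-lamin B1 and 0 were higher, beside 37.6% and 22.2% of all bins. At equal reads 10 were lower and 0 higher, beside 18% and 19.7%. Of the 20 genes, 15 lay in neither LAD list. Uhrf1, which brings Dnmt1 to replicated DNA, differed by −1.96, the NuRD remodeller Chd4 by −1.55 and Trim28 by −1.09. Smarcad1, which lies in both LAD lists, differed by 0.19 and did not pass.

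The 18 members in both blastocyst lists carried little Dam-lamin B1 signal in zygotes. Of these 18 members, 9 were lower with Dam-lamin B1 than with Dam and 0 were higher, with a median log2 difference of −0.68. Over 12044 bins in both lists 34.1% were higher and 16.1% lower, with a median of 0.21. LAD bins that hold a protein-coding gene lay between, with 20.4% higher, 23.5% lower and a median of −0.12. Clustered Zfp bins in both lists had 7 of 62 higher and 7 lower. At equal reads the counts for the members were 3 lower and 0 higher of 18. LAD bins with a gene then had 17.6% higher and 8.15% lower. Whether the 18 differ from other LAD bins with a gene was not tested.

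Lower members in both lists included Zfp827, which recruits NuRD to telomeres (log2 difference −1.33), Zfp57 and Zfp369 (−0.99). Those 3 were also lower at equal reads. The only 3 of the 18 with a log2 difference above 0 were Zfp91 (0.26), Zfp189 (0.13) and Zfp202 (0.02), and none passed. Zfp91 encodes a ubiquitin ligase. Its OE in zygotes had a median of 1.07 and a range of 0 to 3.90 with Dam-lamin B1. With Dam the median was 0.820 and the range 0 to 4.29, so the groups overlapped throughout. Averaged over the 5 bins around it, Zfp91 was higher with Dam-lamin B1 (log2 difference 0.62, limma adjusted p = 0.000113), as was Zfp558 (0.60, adjusted p = 0.000147), while 82 members were lower. Over such windows 30.8% of all bins were higher and 48.8% lower.

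Dam-lamin B1 signal at these 18 members was higher in 2-cell and 8-cell embryos than in zygotes, a description without a test. Their median of mean OE with Dam-lamin B1 was 0.786 in oocytes, 0.748 in zygotes, 1.11 in 2-cell, 1.45 in 8-cell embryos and 0.836 in ES cells. At equal reads the ES median was 0.715, below the 0.756 of zygotes. A mean OE above 1 was found for 8 of 18 in oocytes, 2 in zygotes, 11 at the 2-cell and 13 at the 8-cell stage, and 6 in ES cells. Mean OE was higher at the 8-cell stage than in zygotes for 15 of 18 members (83.3%), with 15 of 18 also at equal reads. The same held for 64.3% of 3435 LAD bins with a gene and for 49.7% of all bins in both lists. Per cell, the log2 of their mean OE over that of all bins was −0.43 ± 0.38 (SD, n = 19) in zygotes and 0.47 ± 0.27 (SD, n = 41) in 8-cell cells. It was above 0 in 2 of 19 zygotes and in 38 of 41 cells of 8-cell embryos. Clustered Zfp bins in both lists were already at a median of 1.12 in zygotes and reached 1.69 at the 8-cell stage. With Dam alone the medians of the 18 solitary members were 1.11 in zygotes, 1.13 in 2-cell and 0.922 in 8-cell embryos. The last value rests on 4 cells. Mean OE with Dam-lamin B1 exceeded that with Dam for 2, 7 and 9 of 18 members, in that order. After thinning to equal reads these counts were 5, 6 and 11. For LAD bins with a gene the shares before thinning were 52.5%, 67.0% and 83.7%, a difference that was not tested.

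**Figure D2:**
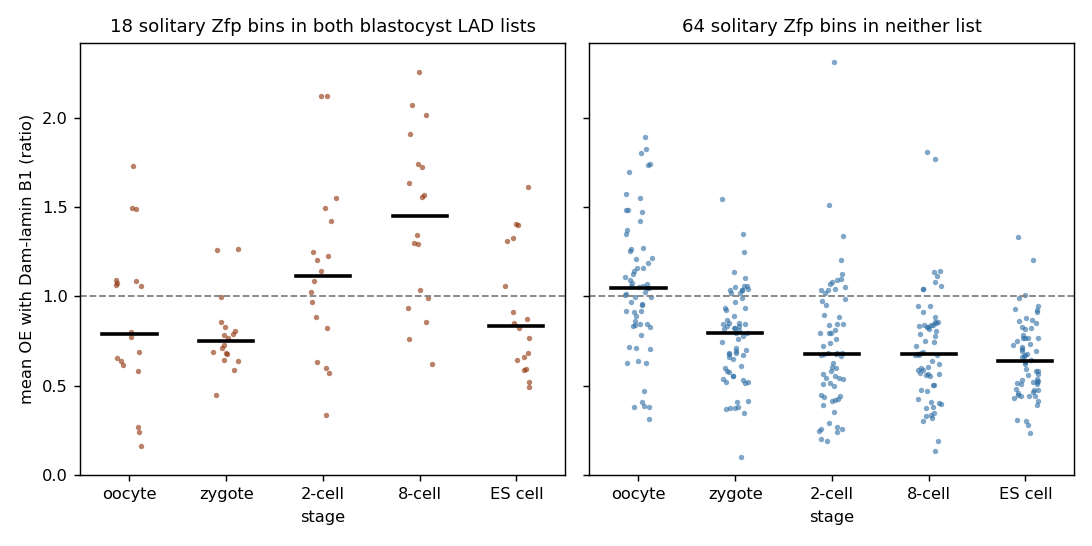
Mean OE with Dam-lamin B1 of each solitary Zfp bin at 5 stages, for the 18 bins in both blastocyst LAD lists and the 64 in neither. Points are bins, black bars are medians over bins and the dashed line marks the expected value of 1. The medians of the bins in both lists were 0.748 in zygotes and 1.45 at the 8-cell stage, while those of the bins in neither list stayed between 0.640 and 1.05.

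The 64 members in neither list did not share this course. Their median was 1.05 in oocytes, 0.793 in zygotes, 0.679 at the 2-cell and 0.677 at the 8-cell stage, and 0.640 in ES cells. Over all bins in neither list the medians were 0.975, 0.742, 0.624, 0.649 and 0.635. With Dam alone the medians of the 64 were 1.28 in oocytes, 1.45 in zygotes, 1.70 at the 2-cell and 2.22 at the 8-cell stage. All bins in neither list had 1.23, 1.36, 1.38 and 1.67. The 8-cell Dam values rest on 4 cells.

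Single members in both lists took different courses. The largest gain between the 2-cell and the 8-cell stage was at Zfp62 on chromosome 11 (49203261 to 49218816), whose bin also holds Mgat1 and 2 olfactory receptor genes. Contact was found in 14 of 56 oocytes, 4 of 19 zygotes and 10 of 47 cells of 2-cell embryos. In 8-cell embryos the count was 32 of 41 cells (78.0%, exact 95% interval 62.4 to 89.4), and in ES cells 2 of 10. This interval, like those below, treats cells as independent, although some may come from the same embryo. Mean OE at the 8-cell stage was 2.07 ± 1.44 (SD, n = 41), against 0.632 ± 0.775 (SD, n = 47) in 2-cell embryos. Zfp369 on chromosome 13 was in contact in 6 of 19 zygotes, 25 of 47 cells of 2-cell and 34 of 41 of 8-cell embryos, and in 2 of 10 ES cells. Zfp654 had counts of 28 of 41 in 8-cell embryos and 1 of 10 in ES cells, a step of −58.3 points as deposited and −30.5 at equal reads.

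Other members in both lists were already high at the 2-cell stage. Zfp827 on chromosome 8 had OE of at least 1 in 5 of 56 oocytes and 3 of 19 zygotes. In 2-cell embryos the count was 29 of 47 cells (61.7%, interval 46.4 to 75.5), a step of 45.9 points as deposited and 30.1 at equal reads. Zfp827 was at 21 of 41 in 8-cell embryos and was in contact in 1 of 10 ES cells. Zfp474 on chromosome 18 went from 5 of 19 zygotes to 36 of 47 cells of 2-cell embryos. Zfp608, on the same chromosome, was in contact in 6 of 19 zygotes, 32 of 47 cells of 2-cell embryos and 28 of 41 of 8-cell embryos. Zfp521, a regulator of neural and blood progenitors, went from 7 of 19 zygotes to 24 of 47 and 20 of 41 cells.

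Some of the 18 did not follow this course. Zfp57 was in contact in 41 of 56 oocytes, the highest share of the 18 there, with a mean OE of 1.73 ± 1.24 (SD, n = 56). It was in contact in 5 of 19 zygotes, and was at 14 of 47 and 15 of 41 cells in 2-cell and 8-cell embryos. Zfp91 and Zfp202 were in contact more often in zygotes than in oocytes, going from 14 of 56 to 10 of 19 and from 6 of 56 to 8 of 19 cells. They were the only members of the 98 with a gain of 20 percentage points or more at that step (2.04% of members), as deposited, against 27.3% of all bins. At equal reads 20 members gained that much, and the share of all bins was not computed. Zfp951, in the ICM list only, had the next largest gain, from 16 of 56 to 9 of 19 cells. At equal reads the gain of Zfp951 was 4.89 points, against 18.8 as deposited, and that of Zfp91 was 61.1 against 27.6. Zfp770 was low in embryos, with 6 of 47 cells at the 2-cell and 9 of 41 at the 8-cell stage, and was in contact in 7 of 10 ES cells.

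**Figure D3:**
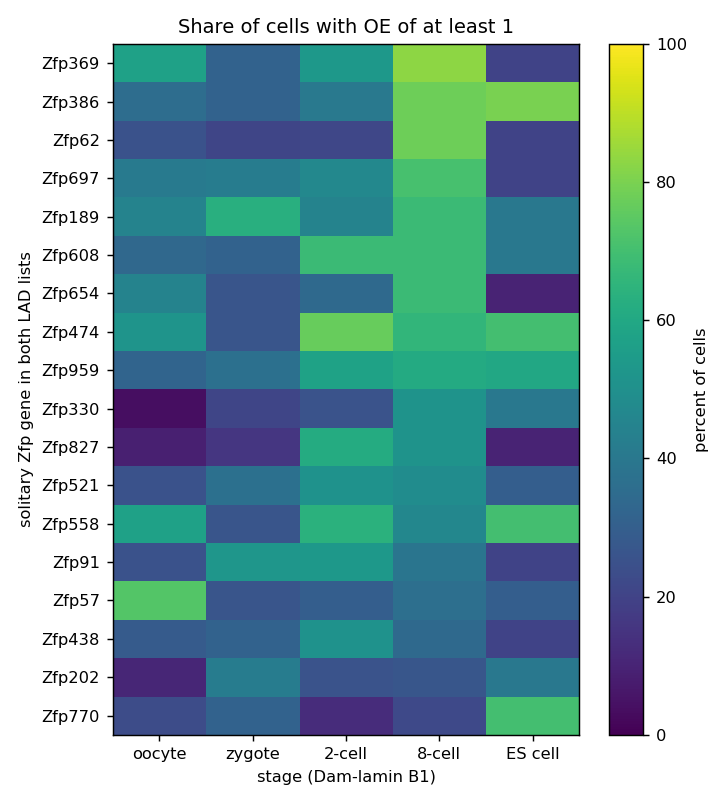
Percent of cells with OE of at least 1 for the 18 solitary Zfp genes in both LAD lists (rows, ordered by the 8-cell value) at 5 stages with Dam-lamin B1 (columns). Zfp369 is highest at the 8-cell stage, at 82.9% of 41 cells, and Zfp57 is highest in oocytes, at 73.2% of 56 cells.

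Among members not in both lists, some had large steps in contact between stages. Over all 98 members, 19.4% gained 20 percentage points or more from zygote to 2-cell and 12.2% lost that much. All bins had 20.9% and 23.5%. From 2-cell to 8-cell the shares were 18.4% and 12.2%, against 18.1% and 17.0% of all bins. At equal reads, 13 members gained and 22 lost that much at the first step, and 13 and 11 at the second. Zfp536, a neural regulator and the longest member at 456 kb, had contact counts of 8 of 56 in oocytes, 5 of 19 in zygotes and 37 of 47 cells of 2-cell embryos (78.7%, interval 64.3 to 89.3). At the 8-cell stage it was at 21 of 41 cells and in ES cells at 3 of 10. Its mean OE was 0.693 ± 0.765 (SD, n = 19) in zygotes and 2.31 ± 1.54 (SD, n = 47) in 2-cell embryos. Zfp641 lost and regained contact, with 10 of 19 zygotes, 8 of 47 cells of 2-cell and 29 of 41 of 8-cell embryos. Zfp655, in the TE list only, went from 12 of 47 to 29 of 41 cells and then to 0 of 10 ES cells. Its bin also holds the zinc finger genes Zkscan5 and Zscan25. With 10 cells, a count of 0 allows a share of up to 30%. The step of Zfp655 from the 8-cell stage to ES cells was −70.7 points as deposited and −33.7 at equal reads.

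The reverse was seen at Zfp704, which went from 24 of 47 cells of 2-cell embryos to 5 of 41 of 8-cell embryos. Zfp358 went from 26 of 47 to 7 of 41 and Zfp800 from 28 of 47 to 9 of 41 cells. Between zygotes and 2-cell embryos Zfp90 went from 13 of 19 to 9 of 47 cells, and Zfp652 from 9 of 19 to 4 of 47. At equal reads the step of Zfp90 was −22.7 points, against −49.3 as deposited, and that of Zfp358 was −21.2 against −38.2. Zfp90 had the highest share of the 98 in zygotes, followed by Zfp189 (12 of 19) and by Zfp319, Zfp207 and Zfp143 (11 of 19 each). Zfp143 encodes an activator found at promoters and loop anchors. The lowest were Zfp996 with 0 of 19, which allows up to 15.8%, and Zfp219, Zfp362, Zfp365 and Zfp638 with 1 of 19 each. Zfp996 was also low with Dam, at a mean OE of 0.304 ± 0.357 (SD, n = 46), the lowest of the 98.

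From oocyte to zygote, 29 members lost 20 percentage points or more, against 18.0% of all bins, and 13 did so at equal reads. There 20 members gained that much, and the median change was −0.56 points, against −7.94 as deposited. The share of all bins was not computed at equal reads. The largest losses were at Zfp142 (37 of 56 to 2 of 19), Zfp57 and Zfp687 (47 of 56 to 8 of 19). From 8-cell embryos to ES cells 26 members lost and 10 gained that much, against 17.9% and 25.7% of all bins. Zfp407 went from 7 of 41 to 8 of 10 cells and Zfp410 from 5 of 41 to 6 of 10. At equal reads those 2 gains were 13.4 and 7.80 points, against 62.9 and 47.8 as deposited.

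As a group, the members lay above the average bin in oocytes and below it at later stages, as did bins with a gene in general. The log2 of mean OE over member bins against all bins was 0.14 ± 0.21 (SD, n = 56) in oocytes with Dam-lamin B1, above 0 in 43 cells. It was −0.41 ± 0.16 (SD, n = 19) in zygotes, −0.34 ± 0.35 (SD, n = 47) in 2-cell, −0.24 ± 0.31 (SD, n = 41) in 8-cell embryos and −0.44 ± 0.17 (SD, n = 10) in ES cells. Over all bins with a protein-coding gene the values were 0.11 in oocytes, −0.22 in zygotes, −0.20 at the 2-cell and −0.08 at the 8-cell stage, and −0.23 in ES cells. None of the zygotes or ES cells was above 0 for the members, against 13 of 47 and 6 of 41 of the cells between. In oocytes labelled 20 ng and 50 ng the values were 0.16 ± 0.09 (SD, n = 17) and 0.13 ± 0.12 (SD, n = 23). With Dam alone the value was 0.28 ± 0.13 (SD, n = 43) in oocytes, 0.43 ± 0.13 (SD, n = 46) in zygotes, 0.60 ± 0.17 (SD, n = 45) in 2-cell and 1.13 ± 0.12 (SD, n = 4) in 8-cell embryos. Every cell with Dam alone was above 0.

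**Figure D4:**
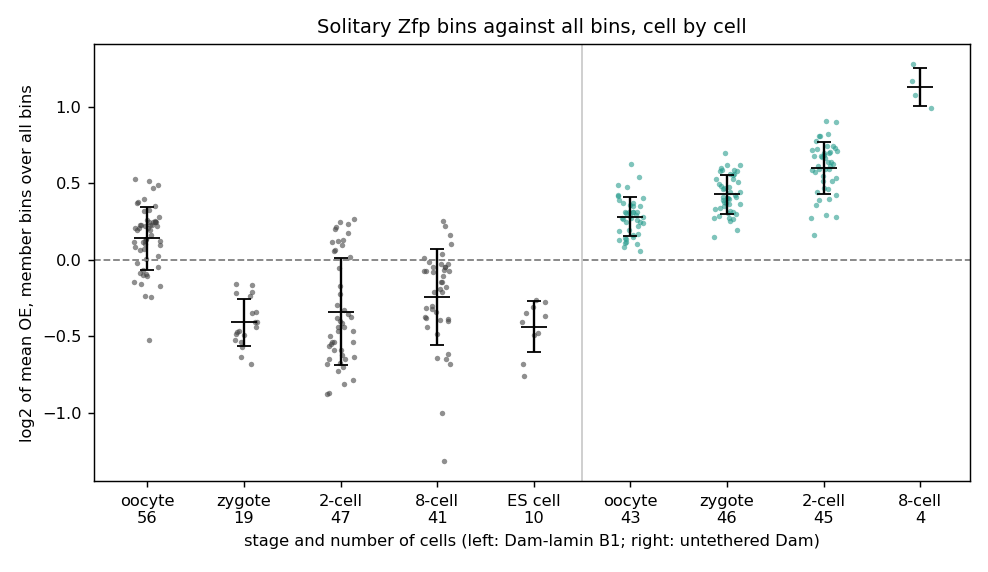
Log2 of the mean OE over the 98 solitary Zfp bins divided by the mean over all bins, 1 point per cell, by stage (numbers of cells under the labels). Grey points are Dam-lamin B1 and green points untethered Dam, with bars for mean ± SD. With Dam-lamin B1 the 19 zygotes lie between −0.68 and −0.16, and with Dam the 46 zygotes lie between 0.15 and 0.69.

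Across the 98 members, the mean OE with Dam-lamin B1 followed that with Dam closely in oocytes (Spearman's rho 0.71) and hardly at all in zygotes (0.21), 2-cell (0.03) and 8-cell embryos (−0.16). Over 10651 bins with a gene the values were 0.69, −0.06, −0.11 and −0.23. Between successive stages with Dam-lamin B1 rho over the members was 0.39 from oocyte to zygote and 0.19 from zygote to 2-cell. It was 0.47 from 2-cell to 8-cell and 0.20 from 8-cell to ES cells. With Dam it was 0.75 both from oocyte to zygote and from zygote to 2-cell. These are correlations across bins, which share libraries and base composition and are not independent replicates. 

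With wild-type Kdm5b, zygotes had more Dam-lamin B1 signal at member bins than with mutant Kdm5b, on average and not past the test at any single bin. The log2 score of member bins over all bins was −0.18 ± 0.37 (SD, n = 14) with wild-type and −0.53 ± 0.44 (SD, n = 9) with mutant Kdm5b. The groups overlapped, with 8 of 14 and 0 of 9 above 0. The score differences here and in the pronuclei below were not tested. They are set against all bins, not against bins with a gene. Of the 14 wild-type zygotes, 4 lay between −0.90 and −0.41 and the other 10 between −0.15 and 0.30. These 4 had 94048, 93744, 210863 and 132643 reads, and their part in the result was not tested. By limma 0 members passed, as did 0% of all bins. At an unadjusted p under 0.05 there were 20 members, against 17.5% of bins, and 10 by Fisher's exact test, against 5.36%. The wild-type zygotes were deeper, at a median of 216242 reads against 85767. At equal reads there were 11 members at that p, against 10.3% of bins. The log2 difference was above 0 at 82 of 98 members, with a median of 0.46, against 0.24 over all bins.

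The 3 highest differences were at Zfp207 (1.38), Zfp46 (1.32) and Zfp664 (1.28). At Zfp207 the OE was 1.30 ± 0.632 (SD, n = 14) with wild-type and 0.440 ± 0.544 (SD, n = 9) with mutant Kdm5b, with an SE of 0.399 on the log2 scale and a limma adjusted p of 0.0957. Of the wild-type zygotes, 12 of 14 were above the mutant mean. The 3 lowest were Zfp277 (−0.68), Zfp438 (−0.58) and Zfp330 (−0.49), of which Zfp438 and Zfp330 are in both lists.

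In paternal pronuclei the score was 0.07 ± 0.16 (SD, n = 19) with wild-type and −0.34 ± 0.20 (SD, n = 6) with mutant Kdm5b, and −0.55 ± 0.21 (SD, n = 15) with neither. Of the 6 mutant pronuclei 5 were below every one of the 19 wild-type pronuclei, and 1 lay at 0.04. By limma 0 members passed, beside 0% of bins, and 13 had an unadjusted p under 0.05, against 13.9% of bins (6 by Fisher's exact test, against 4.3%). The median log2 difference was 0.34 over the members and 0.08 over all bins. The highest value was at Zfp410 on chromosome 12, known as the activator of Chd4. Its OE was between 0.629 and 2.32 in the 19 wild-type pronuclei, with a median of 1.40, and between 0 and 0.668 in the 6 mutant ones, with a median of 0.511. The ranges touched only at their ends, and 19 of 19 wild-type pronuclei were above the mutant mean. The log2 difference was 1.39 (SE 0.376), with an adjusted p of 0.176 by limma and an unadjusted p of 2.26e-05 by an exact permutation test. It was chosen as the largest of 98, so that p is a description. Zfp648 (1.34) and Zfp319 (1.32) followed, and the lowest were Zfp148 (−0.90), Zfp330 (−0.59) and Zfp541 (−0.52).

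Averaged over 5 bins, 14 members passed in the paternal comparison. Each was higher where Kdm5b was wild-type, while 6.73% of bins were higher and 7.21% lower. Of these 14, 13 were in neither LAD list. Zfp319 (log2 difference 0.78), Zfp706 (0.75) and Zfp184 (0.72) had the largest values, and the pluripotency factor Zfp281 had 0.54. Zfp438 was the member in both lists (0.61). The same setting gave 0 members in whole zygotes with wild-type against mutant Kdm5b, beside 0% of bins. In maternal pronuclei it gave 0 members as well, beside 0.0708% of bins.

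Maternal pronuclei gave a score of −0.11 ± 0.27 (SD, n = 19) with wild-type, −0.30 ± 0.39 (SD, n = 13) with mutant and −0.32 ± 0.15 (SD, n = 10) with no Kdm5b. By limma 0 members passed, beside 0% of bins. An unadjusted p under 0.05 was found for 9 members, against 9.8% of bins, and for 4 by Fisher's exact test, against 4.75%. The median log2 difference over the members was 0.30, and 0.15 at equal reads. Zfp638 (1.10), Zfp267 (1.10) and Zfp704 (0.98) were highest, and Zfp148 (−0.89), Zfp651 (−0.75) and Zfp106 (−0.73) lowest. Zfp410 differed by 0.11 (SE 0.461). The Kdm5b effect in paternal minus that in maternal pronuclei was tested as an interaction term in limma, and 0 members passed, beside 0.00418% of bins. An unadjusted p under 0.05 was found for 3 members, Zfp276 (1.35), Zfp651 (1.34) and Zfp648 (1.27), against 6.04% of bins. Averaged over 5 bins, 0 members passed for the interaction term, beside 0% of bins.

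**Figure D5:**
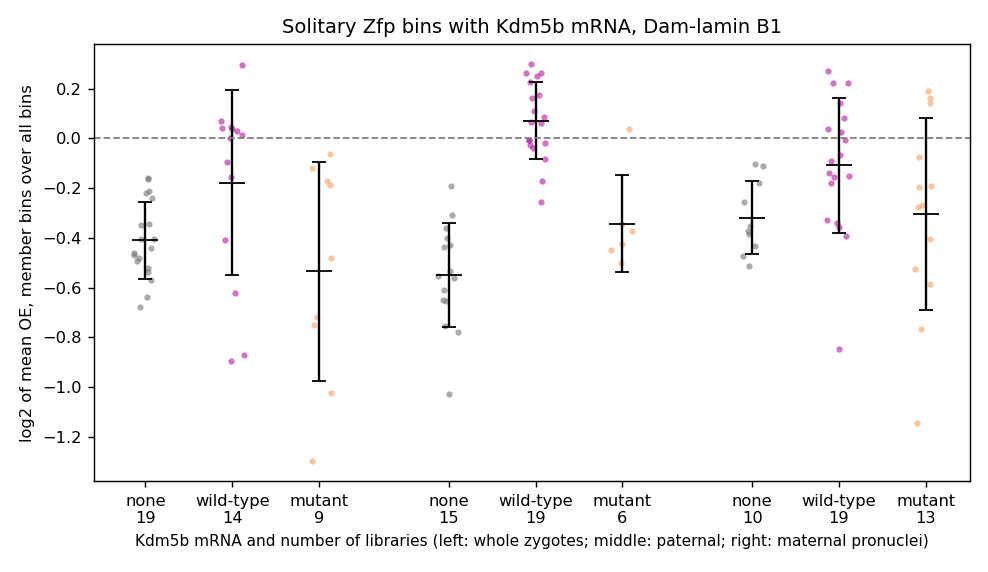
Log2 of the mean OE over the 98 solitary Zfp bins divided by the mean over all bins with Dam-lamin B1, 1 point per library, in whole zygotes, paternal and maternal pronuclei with no, wild-type or mutant Kdm5b mRNA. Bars are mean ± SD, and no construct dose was found for the pronuclei without Kdm5b mRNA. The means with wild-type Kdm5b, −0.18, 0.07 and −0.11, are the highest of each set of 3, and the libraries of the groups overlap.

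Paternal and maternal pronuclei without Kdm5b had scores of −0.55 ± 0.21 (SD, n = 15) and −0.32 ± 0.15 (SD, n = 10), a difference that was not tested. By limma 0 members passed in either direction, beside 2.05% of bins higher and 0.305% lower in paternal pronuclei. At an unadjusted p under 0.05 there were 8 members, against 16.3% of bins, and 5 by Fisher's exact test, against 9.45%. The median was 0.06 over the members and 0.19 over all bins. Over the members it turned to −0.04 at equal reads and to −0.04 with the mean over 5 bins. Zfp292 had the largest difference, at −1.47 (SE 0.458, limma adjusted p = 0.0581). Its OE was 0.471 ± 0.490 (SD, n = 15) in paternal and 1.71 ± 1.50 (SD, n = 10) in maternal pronuclei, and 15 of 15 paternal pronuclei were below the maternal mean. Zfp950 (−1.11) and Zfp609 (−1.10) were lower as well, while Zfp189 (1.25), Zfp410 (1.15) and Zfp330 (0.99) were higher. Averaged over 5 bins, Zfp202 (1.11) and Zfp330 (1.02) were higher and Zfp950 (−1.15) was lower past the threshold, where 6.66% of bins were higher and 1.09% lower.

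Neither Kdm4d nor aphidicolin gave a member past the threshold. With wild-type against mutant Kdm4d, 0 members passed by limma, beside 0.00419% of bins. An unadjusted p under 0.05 was found for 4 members, against 3.87% of bins, and for 3 by Fisher's exact test, against 2.44%. The median was 0.05 over the members, and scores were −0.23 ± 0.33 (SD, n = 12) and −0.31 ± 0.29 (SD, n = 10). Zfp532 was highest (1.20, SE 0.387) and Zfp330 lowest (−1.01, SE 0.386). With aphidicolin against DMSO, 0 members passed by limma, beside 0.00418% of bins, and 4 had an unadjusted p under 0.05, against 5.46% of bins (1 by Fisher's exact test, against 2.48%). The median was −0.05, and scores were −0.39 ± 0.20 (SD, n = 9) and −0.34 ± 0.37 (SD, n = 11). Zfp664 (0.97) and Zfp638 (0.94) were highest and Zfp189 (−1.07) and Zfp521 (−0.94) lowest. The median SE of a member's log2 difference was 0.40 in the Kdm4d and 0.45 in the aphidicolin comparison.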

How the data were processed

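Contact with the nuclear lamina was measured by single-cell DamID with Dam-lamin B1, and accessibility with untethered Dam. The authors deposited OE, the ratio of reads observed to those expected, per 100 kb bin and cell, and LAD lists for ICM and TE. The tools named are cutadapt and BWA 0.7.12, with the build mm10, per the submitters' processing notes. The sources used here do not give how the expected reads were computed.

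Genes were placed by RefSeq gene midpoint. Reads per cell were recovered from the steps of the OE ratio, where all non-zero values came out whole within 0.0001 reads. They give the depths in the report, and the number of cells limits precision beside them. Tests were run with limma 3.58.1 in R 4.3.3 on log2(OE + 0.25), for bins above 0 in at least 10% of the compared cells, with Benjamini-Hochberg adjustment over all bins and a threshold of 0.05. Each comparison used its own groups and no covariate. The script was tested on simulated data. Two-sided permutation tests compared mean OE of single members, and exact Clopper-Pearson intervals at 95% cover counting error only. A count of 0 allows up to 3 counts.

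Members, roles and gene lists were chosen with earlier results of these data known. Named genes were the 10 largest falls in the zygote comparison, the 3 highest and 3 lowest in each other comparison, members of the role lists, the 5 highest and 5 lowest shares in zygotes, and the 3 largest gains and losses of each stage step. Others named were chosen after their values were seen. Alternatives changed the pseudocount, filter, window, depth, test, neighbour rule and replicate block. The 14 cells with contradicting labels entered no comparison.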

Additional observations from a re-analysis of the deposited data

Results flagged for a closer look

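Among 7 groups of 4 to 10 libraries tested for an extreme value, 1 library stood apart. It is the highest of the 6 paternal pronuclei with mutant Kdm5b. Its log2 score of solitary Zfp bins over all bins was 0.0400, while the other 5 lay between −0.50 and −0.35. Chance flags about 1 in 20 groups.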

How the results depend on the processing

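In zygotes, Dam-lamin B1 against Dam gave 69 lower members as reported, 40 by Fisher's exact test and 29 at equal reads. All bins gave 37.6%, 21.3% and 18% lower, in that order. With the mean over 5 bins 82 members were lower and 2 higher, beside 48.8% and 30.8% of bins. The median log2 difference was −1.11 with a pseudocount of 0.1 and −0.42 with 1. With the mean over 5 bins, 14 members were higher in paternal pronuclei with wild-type Kdm5b, with Zfp319 at 0.78. Among all bins 6.73% were higher and 7.21% lower. In paternal against maternal pronuclei that setting gave 2 higher (Zfp330 at 1.02) and 1 lower (Zfp950 at −1.15), beside 6.66% and 1.09% of bins. The median share of cells in contact at OE of at least 2 was 12.5% in oocytes, 5.26% in zygotes, 8.51% in 2-cell, 7.32% in 8-cell embryos and 0% in ES cells with Dam-lamin B1. With Dam it was 6.98%, 19.6% and 25.6% in the first 3 stages. The cause of these shifts was not tested, beyond the settings' own construction.

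The median correlation of same-numbered libraries was between −0.004 and 0.035, and the highest single pair was at 0.143. Pairs above 0.1 were 2 of 9 in the Kdm5b and 1 of 10 in the Kdm4d zygotes. Whether replicate numbers pair the libraries was not tested further. With a replicate block, fitted on same-numbered libraries only (19 per group), 53 members were lower in zygotes with Dam-lamin B1 and 0 were higher. Among all bins 29.9% were lower and 15.3% higher. In paternal pronuclei the block kept 6 libraries per group, of the 19 wild-type ones reported. The median log2 difference between wild-type and mutant Kdm5b was then 0.12 over the members, against 0.34 as reported. An unadjusted limma p under 0.05 was found for 7 members, beside 7.32% of bins, against 13 members and 13.9% as reported. The effects of the block and of the fewer libraries cannot be told apart. Leaving out each mutant paternal pronucleus in turn gave 0 higher and 0 lower members, beside at most 0.0418% of all bins in either direction. Single bins held few reads per cell, which limits what a contact in 1 cell can show.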

Other observations

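The 13 oocytes whose labels give conflicting doses had log2 scores of solitary Zfp bins over all bins from 0.09 to 0.29, with a median of 0.21. The 1 cell of an 8-cell embryo with conflicting construct labels had −0.16.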
